A study of Mus musculus with 16 samples.

Results

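The genes of the ID proteins (Id1, Id2 and Id3) and of the E proteins (Tcf3, Tcf4 and Tcf12) were examined in ChIP-seq peak lists of mouse CD8+ T cells treated with an LSD1 inhibitor or with vehicle. These 6 genes were chosen by name from 26089 curated RefSeq genes. For each, every peak that overlapped the gene body or the 40 kb on either side was taken, which gave 218 of the 214352 peaks in the 12 lists. Peaks were told apart as lying within 1 kb of a transcription start site (TSS), in an intron or between genes.

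The cells were CD8+ T cells from spleens of OT1 mice, which bear a transgenic T cell receptor that sees ovalbumin. Both groups were activated with antibodies to CD3 and CD28 for 48 h and then grown in IL-2 for 3 days. The GSK group received GSK2879552, which blocks the demethylase LSD1 irreversibly, at 0.5 μM, and the Veh group received vehicle. Chromatin was precipitated with antibodies to LSD1, H3K4me1, H3K4me2, H3K4me3, H3K27ac or RNA polymerase II (Pol II), with 1 library for each antibody and treatment. There was thus no replicate, no test was made, and a difference between the lists of an antibody compares 2 libraries and not the conditions. A peak comes from a pool of cells, so the share of cells that carry it cannot be read from the lists.

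E proteins are basic helix-loop-helix factors that bind DNA as dimers at E-boxes, sites with the letters CANNTG. ID proteins have the helix-loop-helix but lack the basic region that contacts DNA, so an E protein paired with an ID protein cannot bind an E-box. In CD8+ T cells Id2 is known for its part in effector cells and Id3 for its part in long-lived memory cells. LSD1 demethylates H3K4me1 and H3K4me2, marks of enhancers and of promoter edges. H3K4me3 is found at promoters, and H3K27ac at promoters and enhancers in use.

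The coordinates are those of mm10. Id1 lies at chr2:152736251-152737410 on the plus strand, Id2 at chr12:25093799-25096092 on the minus strand and Id3 at chr4:136143822-136145392 on the plus strand. Tcf3 lies at chr10:80409541-80433635 on the minus strand and Tcf12 at chr9:71844252-72111819 on the minus strand, and Tcf4 is given with its results. Tcf4 and Tcf12 have 3 curated TSSs each, and the other genes have 1.

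The sequences at the LSD1 sites described next are shown because E-boxes are the sites that E proteins read. Each is the plus strand of GRCm38.p6, 201 bases centred on the summit of the strongest Veh LSD1 peak away from any TSS that also had an overlapping GSK peak, at Id1, Id2, Id3 and Tcf12. Capitals mark E-boxes (CANNTG, which reads the same pattern on both strands). The Id1 site lies at chr2:152741582-152741782, the Id2 site at chr12:25092642-25092842, the Id3 site at chr4:136177642-136177842 and the Tcf12 site at chr9:72133216-72133416.
Id1 site: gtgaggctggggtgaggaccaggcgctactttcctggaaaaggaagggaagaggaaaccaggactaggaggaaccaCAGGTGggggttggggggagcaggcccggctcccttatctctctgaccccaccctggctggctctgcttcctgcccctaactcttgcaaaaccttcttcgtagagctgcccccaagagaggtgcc
Id2 site: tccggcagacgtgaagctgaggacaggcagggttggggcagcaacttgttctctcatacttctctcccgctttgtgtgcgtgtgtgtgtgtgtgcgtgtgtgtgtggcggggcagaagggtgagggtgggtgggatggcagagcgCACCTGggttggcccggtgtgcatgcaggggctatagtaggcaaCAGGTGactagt
Id3 site: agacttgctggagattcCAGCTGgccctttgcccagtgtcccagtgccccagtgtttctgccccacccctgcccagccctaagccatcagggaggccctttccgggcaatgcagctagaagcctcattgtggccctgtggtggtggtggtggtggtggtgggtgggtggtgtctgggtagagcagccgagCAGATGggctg
Tcf12 site: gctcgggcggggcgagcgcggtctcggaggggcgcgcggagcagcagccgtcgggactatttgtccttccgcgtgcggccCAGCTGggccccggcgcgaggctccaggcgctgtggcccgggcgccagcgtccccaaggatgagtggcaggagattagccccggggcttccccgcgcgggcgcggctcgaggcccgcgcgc
The Id1 site held 1 E-box and the Id2 site held 2, all 3 of them of the form CACCTG on one of the strands. The Id3 site held 2, of which 1 was CAGCTG. The Tcf12 site held 1, also CAGCTG, in a sequence with 78.1% G and C. Of the 21 Veh LSD1 peaks in the windows, 14 had an E-box in the 201 bases around the summit (66.7%), against 60.0% of all 21252 Veh LSD1 summits. CAGCTG was found at 5 (23.8%, against 11.4% of all) and CACCTG, searched on both strands, at 4 (19.0%, against 17.1%). Both forms are also counted among the E-boxes. The letters TGTGGT, a core of RUNX sites, were found on either strand at 6 (28.6%, against 22.9%). In the same search CCGGAA (ETS) was found at 3 (14.3%, against 9.5%) and TTCNNNGAA (STAT) at 1 (4.76%, against 6.17%). AATCACNGC (GFI1) was found at 0 (against 0.734%). These matches describe the letters in each window and not binding by any factor.

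For Id2 and Id3, the ID genes with Pol II at the promoter, and Tcf12, the E protein gene whose promoter Pol II peak was in GSK and not Veh, the 250 bases before the TSS are given as read along the gene, from the RefSeq promoter table for GRCm38.p6, again with E-boxes in capitals. Of the 6 genes, 4 were in that table. The regions are chr12:25096093-25096342 for Id2, chr4:136143572-136143821 for Id3 and chr9:72111820-72112069 for Tcf12.
Id2 promoter: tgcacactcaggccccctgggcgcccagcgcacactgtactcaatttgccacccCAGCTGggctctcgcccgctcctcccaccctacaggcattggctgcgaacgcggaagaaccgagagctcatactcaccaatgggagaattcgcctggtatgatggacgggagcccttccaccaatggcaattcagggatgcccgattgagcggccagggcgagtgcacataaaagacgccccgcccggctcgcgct
Id3 promoter: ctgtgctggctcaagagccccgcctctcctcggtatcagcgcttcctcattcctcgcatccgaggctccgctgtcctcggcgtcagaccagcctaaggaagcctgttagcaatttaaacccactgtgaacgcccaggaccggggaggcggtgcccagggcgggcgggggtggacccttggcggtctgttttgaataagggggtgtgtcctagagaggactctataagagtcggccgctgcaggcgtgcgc
Tcf12 promoter: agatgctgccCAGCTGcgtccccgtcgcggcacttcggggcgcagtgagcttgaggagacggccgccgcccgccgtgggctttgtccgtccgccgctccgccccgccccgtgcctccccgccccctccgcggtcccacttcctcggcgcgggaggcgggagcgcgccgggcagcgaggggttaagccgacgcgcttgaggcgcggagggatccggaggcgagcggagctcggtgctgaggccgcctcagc
The Id2 and Tcf12 stretches each held 1 E-box, CAGCTG in both, and the Id3 stretch held 0. Among all 32851 promoter sequences of the same length 66.2% held an E-box and 13.0% held CAGCTG.

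To show where the marks lay, the 218 peaks were first counted by antibody and position. The windows held 114 Veh and 104 GSK peaks. Of the 218, 50 lay at a TSS of the 6 genes, 36 at a TSS of a neighbouring gene, 63 in introns and 69 between genes. H3K4me1 gave the most peaks, 39 in Veh and 41 in GSK, and of these 2 in each treatment lay at a TSS of the 6 genes. LSD1 gave 21 and 18 peaks, H3K4me2 gave 17 and 12, H3K4me3 gave 18 and 17, and Pol II gave 14 and 11. H3K27ac gave 5 peaks in each treatment.

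**Figure D1:**
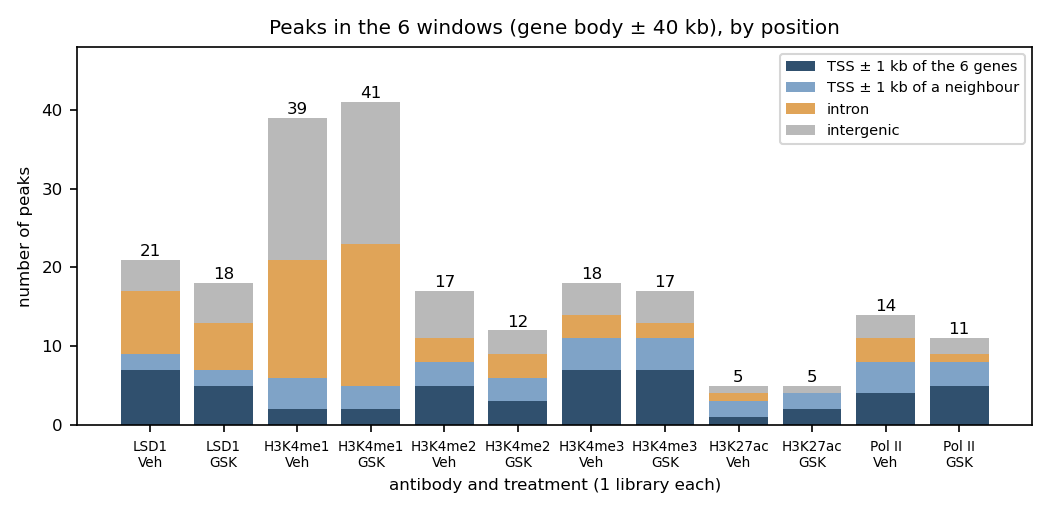
Number of peaks (y axis) in the windows of the 6 genes for each antibody and treatment (x axis, 1 library per bar), split by position. H3K4me1 has the tallest bars (39 and 41 peaks), mostly introns and intergenic sequence, and H3K27ac the shortest (5 and 5).

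The number of GSK peaks divided by that of Veh peaks was 1.00 for H3K27ac in the windows, with a 95% interval of 0.310 to 3.23 (derived from Wilson limits), and 0.371 over the whole lists. The interval includes the list value. In each treatment 2 of the 5 H3K27ac peaks lay at a TSS of a neighbouring gene, and 1 more Veh peak lay in an intron of E2f2. The 5 Veh H3K27ac peaks had a median fold percentile of 22.5 within their list, and the 5 GSK peaks had one of 76.4. When the Veh list was shortened by −log10 p to the length of the GSK list, 1 of the 5 Veh peaks remained and the ratio became 5 (0.775 to 32.3). The Veh H3K27ac library was also sequenced far more deeply than the GSK one, and the part of depth in these numbers was not tested. H3K4me2 had a ratio of 0.706 (0.343 to 1.45) in the windows and 0.620 over the lists. The other ratios ran from 0.786 (0.364 to 1.70) for Pol II to 1.05 (0.680 to 1.62) for H3K4me1, beside 0.985 and 1.17 over the lists. Each interval covers counting error only.

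Peaks were densest in the windows of Tcf3 and Id3. The Tcf3 window holds the promoters of Mex3d, Mbd3 and Uqcr11, and the Id3 window those of E2f2 and Gm42329. The windows of Id1 and Id2 hold those of Cox4i2 and Gm17746. Tcf3 had 53.8 peaks per 100 kb of window and Id3 had 50.3. Id1 and Id2 had 28.3 and 29.2. Tcf4 and Tcf12, whose windows span 423 and 348 kb, had 9.45 and 9.78. Tcf12 had more GSK than Veh peaks, 19 against 15, and the other 5 genes had fewer.

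The promoters of the 6 genes were then compared, taking for each list the peak with the highest fold enrichment (ChIP signal over local background, the authors' value) within 1 kb of a TSS. As fold enrichment depends on depth, each value is also given as its percentile within its own list. H3K4me3 was present at all 6 promoters in both treatments, as it was at 56.2% of 20923 protein-coding genes. Over all genes, 0.32% had H3K4me3 in Veh and not GSK, and 1.53% the reverse. Pol II was present in both treatments at Id2, Id3, Tcf3 and Tcf4 (24.9% of all genes), in GSK and not Veh at Tcf12 (3.31%), in Veh and not GSK at 0 of the 6 (8.31%), and in neither list at Id1. H3K27ac was present in both at Tcf3 (9.2%) and in GSK and not Veh at Tcf12 (0.392%), and had no peak at the promoters of the other 4, while 13.8% of all genes had it in Veh and not GSK.

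LSD1 was present in both treatments at Id1, Id3, Tcf4 and Tcf12, where 36.2% of all genes had it. At Tcf3 it was present in Veh and not GSK (4.87%), at 0 of the 6 in GSK and not Veh (10.9%), and at Id2 in neither. H3K4me1 was present in both treatments at Id1 and Tcf12 (29.7%), and at 0 of the 6 in a single treatment, which was the case for 3.71% of all genes in Veh and 10.8% in GSK. H3K4me2 was present in both at Id1, Id3 and Tcf4 (30%), in Veh and not GSK at Tcf3 (14.3%), and in GSK and not Veh at 0 of the 6 (2.1%). With 6 genes a share rests on few promoters, and nothing particular to the group is read from these counts.

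**Figure D2:**
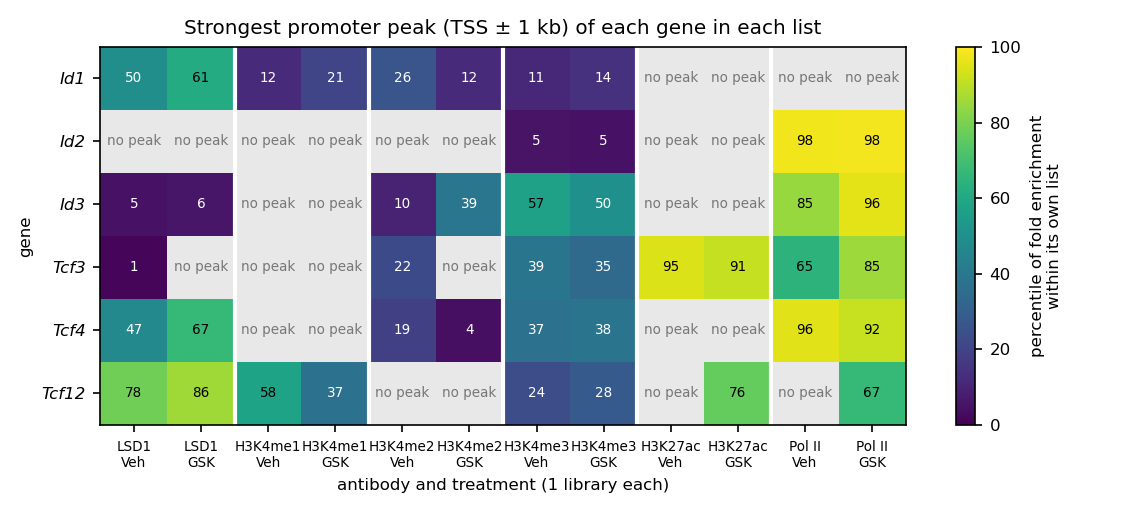
Percentile of fold enrichment within its own list (colour and number) of the strongest peak within 1 kb of a TSS, for each gene (rows) in each of the 12 lists (columns); grey means no peak. Id2 has Pol II at percentile 98 in both treatments with no LSD1, H3K4me1, H3K4me2 or H3K27ac peak, and Tcf12 has H3K27ac and Pol II peaks in the GSK columns alone.

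Among the ID genes, Id2 had the highest Pol II peak at its promoter. The fold enrichment was 10.2 in Veh (percentile 97.7, −log10 p of 63.7) and 8.99 in GSK (percentile 98.3, −log10 p of 56.7). Its H3K4me3 peak covered 2370 bp in Veh and 2353 bp in GSK, which is most of this short gene. The fold of that wide peak was 3.49 and 3.38, near percentile 5 in both lists, whereas by −log10 p it stood at percentile 68.5 and 64.6. The fold of a broad peak is an average over its width, so the 2 scales need not rank a wide peak alike. No peak of LSD1, H3K4me1, H3K4me2 or H3K27ac lay within 1 kb of the Id2 TSS in either treatment.

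LSD1 lay on both sides of Id2. Past its 3′ end, 3.35 kb from the TSS, LSD1 had a fold of 4.06 in Veh (−log10 p of 8.39) and 5.0 in GSK (11.1). This is the Id2 site printed above, with CACCTG E-boxes. The same stretch, chr12:25092663-25093521, had H3K4me2 (fold 3.45 in Veh and 3.8 in GSK) and Pol II (3.92 and 2.74) in both treatments, and an H3K4me1 peak (3.77) in Veh that no GSK peak overlapped. The Pol II peak there stood at percentile 51.0 in Veh (−log10 p of 11.6) and 4.40 in GSK (5.83). On the other side, LSD1 had a weak Veh peak 2.31 kb upstream (fold 2.59, −log10 p of 4.30) and a GSK peak 3.49 kb upstream (3.62 and 7.88), with 652 bp between them. Next to the GSK peak H3K4me3 was present in both treatments (fold 2.06 and 2.13) and H3K4me2 in Veh (2.90). Farther upstream, 4 H3K4me1 peaks in each treatment overlapped pairwise, from 5.22 to 36.4 kb from the TSS.

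Id3 also had H3K4me3 and Pol II at its promoter in both treatments. The Pol II fold was 6.13 in Veh (percentile 84.7, −log10 p of 14.3) and 6.85 in GSK (percentile 95.8, −log10 p of 21.2). H3K4me3 had a fold of 6.06 and 5.77 (percentiles 57.4 and 50.4). H3K4me2 had a fold of 3.61 in Veh and 4.74 in GSK, at percentiles 10.0 and 39.4. LSD1 was weak here: the Veh list had peaks with folds of 3.00 and 2.71 and the GSK list had 1 of 3.18, and no Veh peak overlapped the GSK peak, although it lay 210 bp from the nearer one. Their −log10 p lay between 3.94 and 5.48.

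An intergenic region 8.81 kb upstream of Id3, chr4:136134442-136135576, carried all 3 methylation states in both treatments and no LSD1 peak. H3K4me1 had a fold of 3.78 in Veh and 4.66 in GSK. H3K4me2 had 6.12 in Veh (percentile 90.1) and 4.85 in GSK (percentile 44.7). H3K4me3 had 4.28 and 4.72, at percentiles 18.7 and 27.4. A GSK LSD1 peak with no Veh counterpart lay 4.81 kb downstream of the TSS, at a fold of 2.53 and with a −log10 p (3.42) close to the lowest value in its list (3.01).

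By −log10 p, the strongest LSD1 peak in any of the 6 windows lay 33.9 kb downstream of the Id3 TSS, in intron 1 of E2f2, which encodes a transcription factor of the cell cycle. At chr4:136177391-136177994 the Veh fold was 7.11 and the −log10 p was 45.8, at percentile 99.2 of the list by −log10 p. For the GSK peak these values were 5.75 and 25.9, at percentile 97.7. This is the Id3 site printed above. The merged region around it, chr4:136175423-136178658, had H3K4me1 in both treatments (fold 2.32 and 2.38), and the GSK H3K4me1 peak ended before the LSD1 peak began. H3K4me2 (3.13) and H3K27ac (2.49, −log10 p of 6.67) lay at the far edge of the region in Veh and not GSK, and a weak Pol II peak (2.8, −log10 p of 5.32) in GSK and not Veh. A second LSD1 peak in the same intron, 30.5 kb from Id3, had a fold of 3.39 in Veh and 3.93 in GSK. The lists do not say which gene these intronic sites act on, and the E2f2 promoter is nearer than that of Id3.

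By H3K4me3 −log10 p, Id1 had the lowest promoter peak of the ID genes, although its fold was above that of Id2. H3K4me3 had a fold of 3.91 in Veh (−log10 p of 7.09, percentile 5.88 by that measure) and 4.10 in GSK (9.06, percentile 13.7), and neither Pol II nor H3K27ac had a peak anywhere in the window. H3K4me1 covered 2059 bp at the TSS in Veh and 2084 bp in GSK, with folds of 2.85 and 3.04. H3K4me2 had peaks with folds of 4.07 and 4.11 in Veh and 1 of 4.15 in GSK. LSD1 had a fold of 4.19 in Veh (−log10 p of 6.98) and 4.89 in GSK (9.20). The Veh summit was 1.09 kb upstream of the TSS and the GSK summit 0.087 kb downstream, and 805 bp lay between the peaks.

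Downstream of Id1, 5.43 kb from the TSS, the Id1 site printed above had LSD1 in both treatments, with a fold of 4.85 in Veh (−log10 p of 9.45) and 5.18 in GSK (9.38). H3K4me1 was present there in both (3.58 and 3.08) and H3K4me2 in Veh and not GSK (3.81, −log10 p of 5.94). A Veh LSD1 peak without a GSK counterpart lay 39.3 kb downstream in intron 2 of Bcl2l1, which encodes the survival factor BCL-XL. Its fold was 4.77 and its −log10 p 9.95, and H3K4me1 was present there in both treatments. At the TSS of Cox4i2, 17.9 kb downstream, H3K4me1 had a fold of 5.94 in Veh and 7.01 in GSK, at percentiles 97.4 and 99.7.

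**Figure D3:**
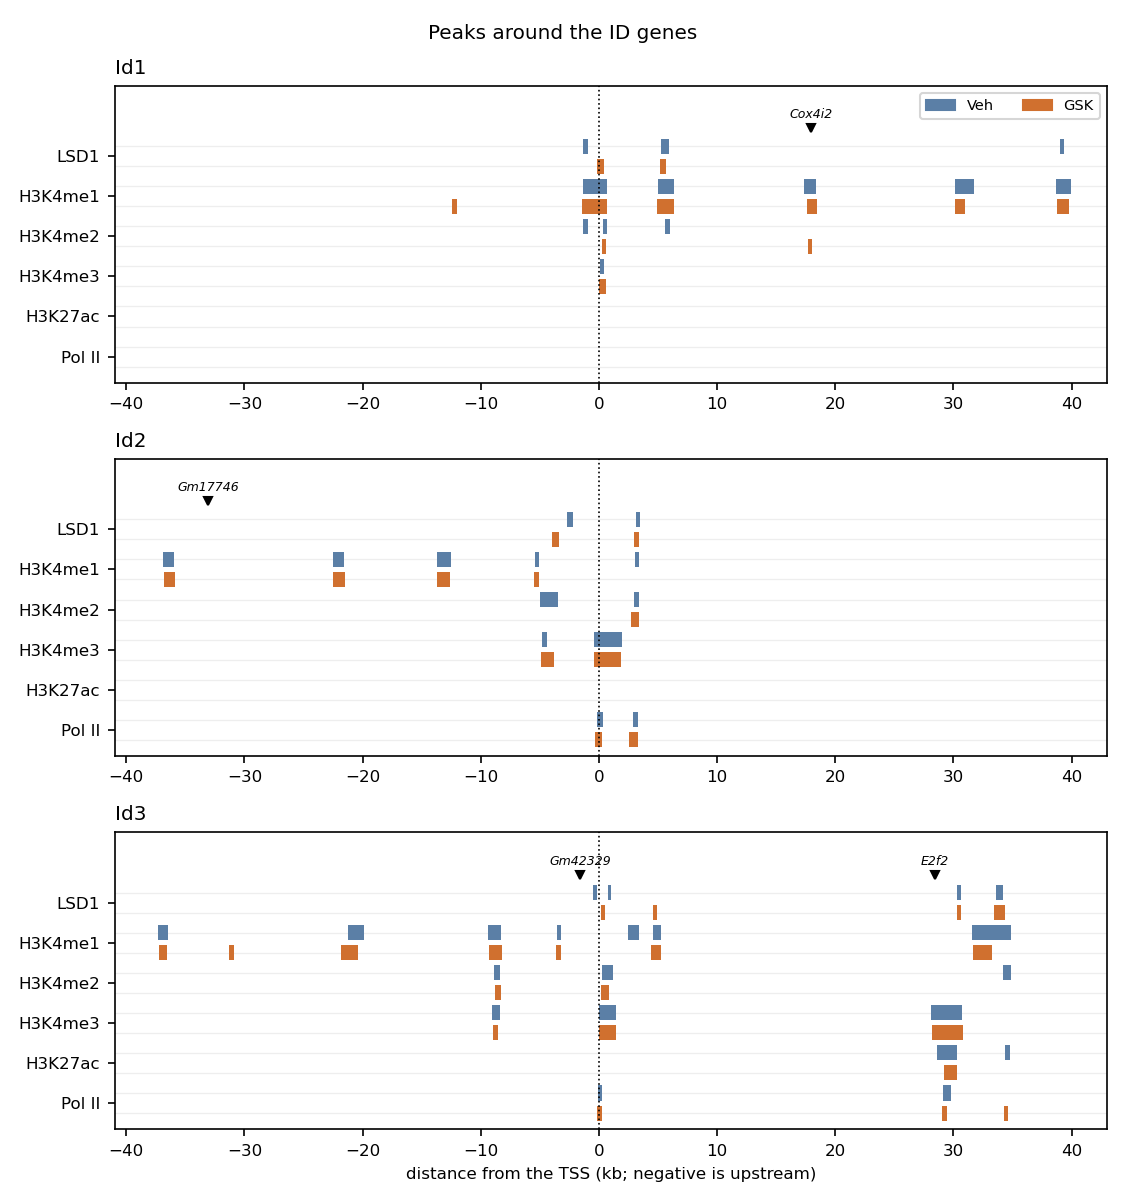
Peaks of each antibody (y axis, Veh above GSK) around Id1, Id2 and Id3 against distance from the TSS in kb (x axis, negative is upstream); dotted lines mark the TSS, triangles mark TSSs of neighbouring genes, and the narrowest peaks are drawn wider than they are. H3K27ac has no bar in the Id1 and Id2 panels, and in the Id3 panel its bars lie at E2f2.

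Among the E protein genes, Tcf3, which encodes E2A, had H3K27ac at its promoter in both treatments. The fold was 5.54 in Veh (percentile 94.7, −log10 p of 20.4) and 6.34 in GSK (percentile 91.2, −log10 p of 13.8). Pol II had a fold of 4.52 in Veh and 4.92 in GSK, at percentiles 64.6 and 85.2. H3K4me3 covered 1694 bp in Veh (fold 5.20) and 2113 bp in GSK (5.04).

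The Tcf3 LSD1 peak within 1 kb of the TSS was in the Veh list and near its lower end (fold 2.78, percentile 1.24, −log10 p of 4.75). A stronger LSD1 peak lay in intron 1, about 1.6 kb downstream, with a fold of 4.63 in Veh (−log10 p of 12.2) and 4.33 in GSK (10.8). H3K4me2 covered 1651 bp in Veh (fold 4.02), over that site and to within 1 kb of the TSS. In GSK it covered 918 bp over the intron site (4.86) and ended farther than 1 kb from the TSS, so that the promoter had H3K4me2 in Veh and not GSK although the peaks overlap. When all lists were merged, the region chr10:80430966-80434631 from intron 1 to the promoter held peaks of all 12 lists.

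Neighbours of Tcf3 also carried LSD1. At the TSS of Mex3d, 46.8 kb downstream, LSD1 had a fold of 7.14 in Veh (−log10 p of 20.0) and 6.78 in GSK (16.0). At Uqcr11, a gene of the respiratory chain, it had 2.94 and 4.17. Mbd3, a gene of the NuRD complex, had H3K27ac and Pol II at its TSS in both treatments and no LSD1 peak. An intergenic region 62.0 kb downstream of the Tcf3 TSS had H3K4me1 and H3K4me3 in both treatments and H3K4me2 in Veh.

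Tcf12, which encodes HEB, a partner of E2A in thymocytes, had H3K4me3 and LSD1 at its 5′ promoter in both treatments. H3K4me3 had a fold of 4.51 in Veh and 4.76 in GSK. LSD1 covered 1527 bp in Veh (fold 5.37, −log10 p of 13.0) and 1566 bp in GSK (6.29, −log10 p of 17.6). H3K27ac had a peak in GSK and not Veh, (fold 5.56, percentile 76.4, −log10 p of 9.46), 0.19 kb downstream of the TSS. Pol II likewise had a peak in GSK and not Veh, (fold 3.88, percentile 67.2, −log10 p of 6.93), 0.024 kb from the TSS. The nearest Veh peaks of these antibodies were over 21 kb away.

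Of 20923 protein-coding genes, 8 had both an H3K27ac and a Pol II promoter peak in GSK and neither in Veh (0.0382%). This combination was counted after the Tcf12 values were seen. The other 7 were Cacfd1, Dbf4, Ddi2, Naa20, Pitpnb, Pvr and Slc25a40, of which Dbf4 and Slc25a40 share the same peaks. Over the 8 genes the H3K27ac −log10 p ran from 7.18 for Pitpnb to 9.46 for Tcf12, and the Pol II −log10 p from 4.74 for Pvr to 7.72 for Dbf4. The Tcf12 Pol II peak had a −log10 q of 3.39, so it is absent at a −log10 q of at least 5, while the H3K27ac peak (5.60) remains.

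An intergenic region 21.4 kb upstream of Tcf12, chr9:72132428-72134032, had peaks in all 12 lists. No curated TSS lies in it. Of 56551 merged regions of the series away from TSSs, 55 held peaks of all 12 lists (0.0973%). LSD1 had a fold of 5.88 in Veh (−log10 p of 11.8) and 6.39 in GSK (13.1) at the Tcf12 site printed above. H3K4me3 had 6.07 in Veh and 6.87 in GSK, higher in fold than at the Tcf12 promoter itself in both lists. By −log10 p the order was the reverse, with 49.8 and 70.5 here and 65.3 and 82.5 at the promoter. Pol II had 5.66 (−log10 p of 12.1) and 5.45 (13.2), and H3K27ac had 3.85 (7.68) and 5.03 (7.57). H3K4me2 had 4.74 and 5.16, and H3K4me1 had 3.78 and 3.90. H3K4me3 and Pol II, usual at promoters, were thus both present, and whether a transcript starts there was not measured.

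Inside Tcf12, H3K4me1 in intron 3, 11.5 kb from the nearest TSS, had a fold of 4.46 in Veh (−log10 p of 23.3, percentile 99.6 by that measure) and 3.53 in GSK (17.8, percentile 97.0). H3K4me2 was present there in GSK and not Veh (4.13, −log10 p of 7.24). A Veh LSD1 peak without a GSK counterpart lay in the same intron, 14.0 kb from the nearest TSS (4.50, −log10 p of 9.38), and a GSK peak without a Veh counterpart lay in intron 8 (3.79, −log10 p of 4.53). At the promoter H3K4me1 flanked the H3K4me3 peak on the upstream side in Veh (4.19) and on the downstream side in GSK (3.53), with 1793 bp between the peaks. Farther into the gene, 3 intronic H3K4me1 peaks in GSK, with folds of 3.24 to 4.05, had no Veh counterpart.

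Tcf4, the E protein gene known for its part in plasmacytoid dendritic cells, lies at chr18:69344492-69687967 on the plus strand and had LSD1, H3K4me3 and Pol II at its first TSS in both treatments. LSD1 had a fold of 4.11 in Veh (−log10 p of 6.84) and 5.12 in GSK (10.3). Pol II had 8.52 in Veh (percentile 95.5, −log10 p of 21.4) and 5.74 in GSK (percentile 91.5, −log10 p of 13.1). H3K4me3 had 5.13 and 5.21. At the other TSSs, H3K4me2 had 3.92 in Veh (−log10 p of 8.81, percentile 56.1 by that measure) and 3.77 in GSK (6.40, percentile 7.71). H3K4me3 had 4.23 and 3.94 there. LSD1 had a Veh peak (3.24) and a GSK peak (3.50) there, with 465 bp between them. H3K27ac had no peak in the whole window of 423 kb in either treatment.

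Most distal peaks of Tcf4 lay in intron 8. At chr18:69592413-69593766, about 247 kb from the nearest curated TSS, LSD1 (fold 4.75 in Veh and 4.93 in GSK), H3K4me2 (5.49 and 6.19) and H3K4me3 (5.07 and 4.93) were present in both treatments, and H3K4me1 (4.27) in Veh. At chr18:69570882-69571374 H3K4me3 was present without any other mark, with a fold of 8.02 in Veh and 7.63 in GSK, above that at the first TSS. By −log10 p it was below it, with 22.5 and 19.4 against 40.9 and 43.1. In intron 6, at chr18:69546479-69548724, LSD1 (5.74 in Veh, −log10 p of 10.7, and 5.13 in GSK, 7.42) lay with H3K4me1 (4.0 and 4.24). Pol II had 3 Veh peaks away from the promoter that no GSK peak overlapped, with −log10 p of 3.11 to 4.35, at percentiles 1.92 to 29.0 of the list by that measure.

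**Figure D4:**
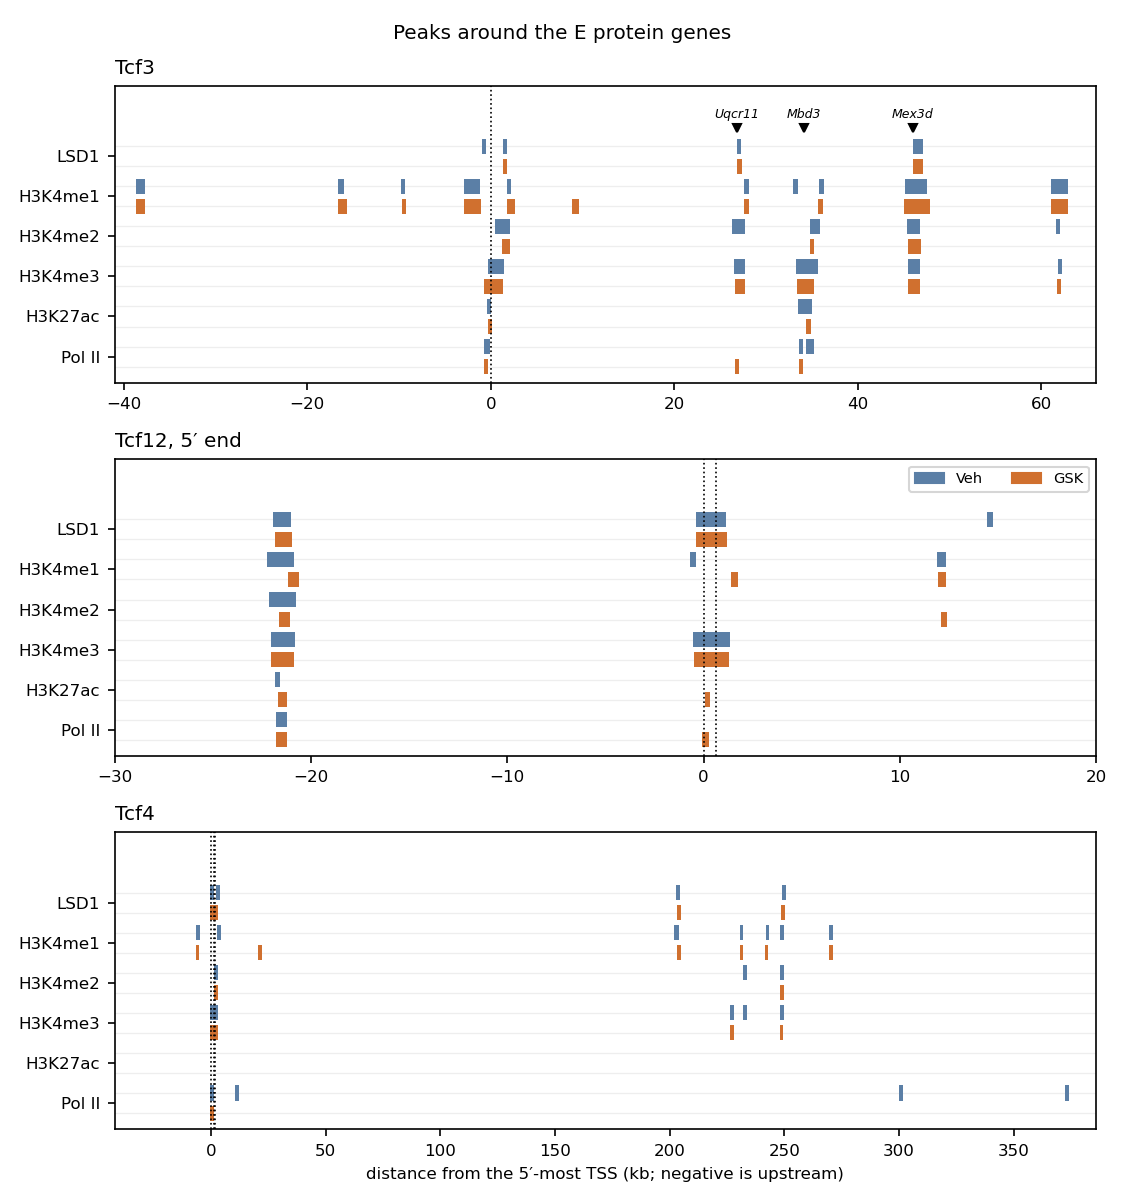
Peaks of each antibody (y axis, Veh above GSK) around Tcf3, the 5′ end of Tcf12 and Tcf4 against distance from the 5′-most TSS in kb (x axis, negative is upstream); dotted lines mark curated TSSs, triangles mark neighbouring TSSs, and the narrowest peaks are drawn wider than they are. In the Tcf12 panel every row has a bar about 21 kb upstream, and H3K27ac and Pol II have a GSK bar and no Veh bar at the TSS.

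LSD1 peaks of the windows were then followed from Veh to GSK as a group. Of 21 Veh peaks, 12 overlapped a GSK peak (57.1%, Wilson 95% interval 36.5 to 75.5), beside 54.6% of the whole list. Of 12 Veh peaks away from TSSs, 8 did (66.7%, 39.1 to 86.2), beside 34.9% of such peaks in the list. Of 9 at a TSS, 4 did (44.4%, 18.9 to 73.3), beside 83% in the list. Of these 9, 7 lay at a TSS of the 6 genes and 2 at neighbouring genes, Mex3d and Uqcr11. Both neighbour peaks overlapped a GSK peak. Among the 7, those at the first TSS of Tcf4 and at Tcf12 did, and the others did not. From Veh to GSK the windows thus lay above the list away from TSSs and below it at TSSs.

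Both shares were also taken with a looser overlap and by peak strength, the second after the data were seen. When a GSK peak within 1 kb also counted, 8 of the 9 TSS peaks had one (88.9%), beside 87.5% of the list, and 9 of the 12 distal peaks did (75%, 46.8 to 91.1), above the 37.9% of the list. At or above the median −log10 p of the Veh list (6.75), a GSK peak overlapped 8 of 10 distal peaks (80%, 49.0 to 94.3), and below it 0 of 2, beside 58.2% and 16.1% of the list. At TSSs the values were 3 of 4 peaks at or above the median and 1 of 5 below it, beside 91.0% and 72.2%. With the split by strength, the interval of the share of the stronger distal peaks includes that of the list. The interval of the weaker TSS peaks (3.62 to 62.4) lies below the list share, and that of the stronger ones (30.1 to 95.4) includes it.

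**Figure D5:**
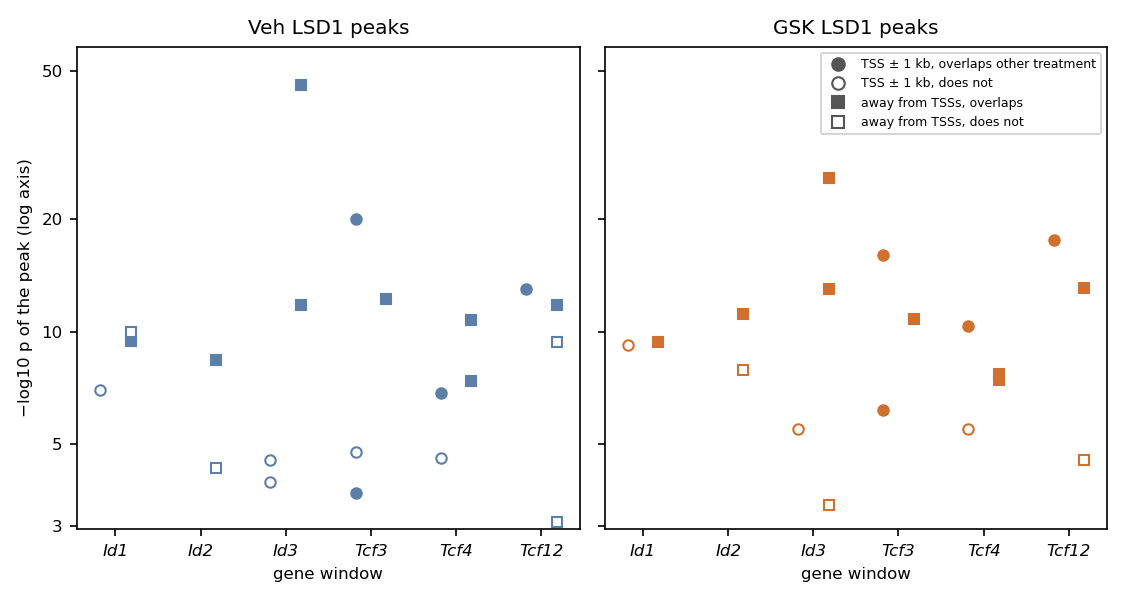
LSD1 peaks in the window of each gene (x axis) by −log10 p (y axis, log scale), in Veh (left) and GSK (right); circles lie within 1 kb of a TSS of any gene, squares away from TSSs, and filled symbols overlap a peak of the other treatment. Most open circles lie below a −log10 p of 7, and the strongest peak in both panels is the Id3 site in E2f2 (45.8 in Veh and 25.9 in GSK).

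For the 3 methylation states of H3K4 the interval of each share included the share of the list. H3K4me3 had the highest shares, with a GSK peak over 17 of 18 Veh peaks (94.4%, list 97.3%) and 17 of 17 in the other direction (list 91.1%). H3K4me1 had 33 of 39 (84.6%, list 87.8%) and 33 of 41 (80.5%, list 75.2%). H3K4me2 had 10 of 17 (58.8%, list 55.3%) and 10 of 12 (83.3%, list 89.2%). Pol II had 8 of 14 (57.1%, 32.6 to 78.6, list 39.1%) and 8 of 11 (72.7%, 43.4 to 90.3, list 39.6%), where the second interval lies above the list. Of these 11 GSK peaks, 5 lay at a TSS of an ID or E protein gene and 3 at that of a neighbouring gene. Their median fold percentile was 83.4. Unlike those of Veh LSD1 peaks, shares of the other antibodies were not split by position or strength. Whether the Pol II excess remains beside list peaks of like position and strength was not tested. LSD1 peaks of GSK overlapped a Veh peak in 12 of 18 cases (66.7%, list 57.8%). Away from TSSs 8 of 11 did (72.7%, 43.4 to 90.3, list 43.7%), and at TSSs 4 of 7 (57.1%, 25.0 to 84.2, list 71.9%). In this direction both intervals include the list share. For H3K27ac, 4 of 5 Veh peaks were overlapped (80%, 37.6 to 96.4), where the list share of 35.2% lies just below the interval, and 4 of 5 in the other direction (80%, list 95%).

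Other genes of the pathway were read at their promoters in the same way. Of 10 helix-loop-helix partners and relatives, 4 had H3K4me3 in both treatments (Tal1, Msc, Bhlhe40 and Bhlhe41), beside 56.2% of all genes. Twist1 had it in GSK and not Veh (1.53%). Bhlhe40, a repressor induced by activation, was the 1 gene of this list with Pol II, in both treatments. Of 8 cofactors and stability regulators, 7 had H3K4me3 in both, and Runx1t1 had none. Usp1, which encodes a deubiquitinase that stabilises ID proteins, had H3K27ac and Pol II in both treatments, as did Ep300, a histone acetyltransferase that E proteins recruit.

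Among 8 inducers of ID genes (Egr, Smad and Stat5 genes), 6 had LSD1 in both treatments (36.2% of all genes). Egr1 and Egr3 had it in GSK and not Veh (10.9%). Pol II was present in both treatments at Egr1 and Smad4 (24.9%), and in Veh and not GSK at Stat5a and Stat5b (8.31%). H3K4me2 was present in Veh and not GSK at Egr3, Smad5 and Stat5b (14.3%). Of 12 E protein target genes, 6 had H3K4me3 in both treatments (Il7r, Notch1, Socs3, Gfi1, Cdkn1a and Foxo1). Ptcra, Rag1, Rag2 and Cd4, genes used by developing or helper T cells, had no promoter peak of any antibody. H3K27ac was present in Veh and not GSK at 4 of the 12 (Notch1, Socs3, Gfi1 and Cdkn1a), and in both at 0. Of all genes, 13.8% had it in Veh and not GSK and 9.2% in both. Pol II was present in GSK and not Veh at Gfi1 and Foxo1 (3.31% of all genes). These counts stand beside the shares of all genes given above.

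The genes with promoter patterns closest to each of the 6 were found as those with the smallest mean absolute difference in fold percentile over the 12 lists, with 0 where there was no peak. For Id2 these were Zfp36, Ier2 and Bcl11b, at 0.228, 0.567 and 0.821 percentile points. Presence or absence of a peak matched Id2 in 12, 11 and 12 of the lists. A list without a peak at either gene adds no difference. A gene with few peaks, such as Id2 with H3K4me3 and Pol II only, can thus lie close to others by shared absence. For Id1 they were Slc35d3, Agrn and Zfp467, at 4.02 to 5.20 points. Tcf4 lay nearest to Parg and Timm23, a pair with the same promoter peaks (2.82), followed by Htt (5.22). Tcf3 lay nearest to the pair Ahsa1 and Vipas39 (4.55) and then Phf8 (6.43), and Id3 to the pair Orc3 and Rars2 (5.0) and then Tma7 (5.80). Presence matched Id3 in 10 lists for Orc3 and Rars2 and in 9 for Tma7. Tcf12 had no close match: Tbp, 0610030E20Rik and Txlnb were nearest, at 15.1 to 15.7 points.

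The labelled cell type was checked by promoter marks, which show chromatin state and not expression. H3K4me3 was present in both treatments at all 6 CD8+ T cell markers (Cd8a, Cd8b1, Cd3d, Cd3e, Cd3g and Gzmb), and Pol II in the GSK list at 5 and the Veh list at 3 of them. No H3K4me3 or Pol II peak lay at the promoters of the 4 B cell, 4 myeloid or 2 NK cell markers in either treatment.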

How the data were processed

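ChIP-seq of 16 samples was deposited, and the peak lists of the 12 ChIP libraries were used, while the 4 inputs were not analysed here. The authors kept reads that Bowtie2 placed at a single site in mm10 and removed duplicates with Samtools. They called peaks in each library with MACS2, with input as control, at a stated p cutoff of 0.001. The LSD1 and Pol II lists end at a −log10 p of about 3.0. The histone mark lists end at a −log10 q of about 3.0, where the lowest −log10 p runs from 4.99 to 6.47. For H3K27ac it is 5.94 in Veh and 6.47 in GSK. A missing histone peak thus failed a stricter cutoff than a missing LSD1 or Pol II peak. Peaks are narrow for LSD1 and Pol II, and broad for the histone marks. The authors deposited for each peak a fold enrichment (a ratio to local background), a −log10 p and a −log10 q, and a score that repeats −log10 p or −log10 q times 10 as a whole number. The study repeated its ChIP-seq, and each list carries the name of 1 biological and 1 technical replicate. The lists hold no read numbers, and those the study states were not used to scale any list. By them the Veh library was the deeper of the pair for H3K27ac, by far, and for H3K4me2 and LSD1, and the GSK library for H3K4me1, H3K4me3 and Pol II. To compare signals, the study also drew equal numbers of reads at random from the libraries. It does not say clearly whether the peaks were called on these reads. With 1 library each, depth and treatment cannot be told apart. The study names more than 1 sequencer and does not state which library went on which. Its read numbers include optical duplicates for LSD1, H3K4me1 and H3K4me2 and none for H3K4me3, H3K27ac and Pol II. The antibodies may thus come from separate sets, over which the regions were merged.

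Peaks were assigned with curated RefSeq transcripts of GRCm38.p6 (31554 TSSs), whose chromosome lengths contained every peak. A peak overlapping a TSS ± 1 kb was a TSS peak, and others took the position of their summit (narrow) or midpoint (broad), from which distances are given. An overlap was 1 bp or more. A promoter counted as having a mark when any peak overlapped 1 kb on either side of any of its TSSs. For regions, the peaks of all lists were merged where they overlapped. Shares have Wilson 95% intervals, which cover counting error only. Overlap, position and interval code was tested on simulated data. Python 3.11.15, NumPy 2.4.6, SciPy 1.17.1, pysam 0.24.0 and matplotlib 3.10.9 were used.

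The 6 genes and all gene lists were chosen with earlier results of these data known. The rule for named peaks was every promoter peak of the 6 genes, and away from TSSs the strongest LSD1 peak by −log10 p in both treatments, in Veh alone and in GSK alone, with the strongest Veh H3K27ac and Pol II peaks. Other distal peaks, the count of regions in all 12 lists, the combination of H3K27ac and Pol II in GSK alone, and the motifs were chosen after values were seen. The 3 nearest genes by promoter pattern are named for each of the 6. Alternatives were other flanks (10 and 100 kb), a TSS window of 2.5 kb, a −log10 q of at least 5, lists of equal length, other overlap rules, every transcript of the annotation and −log10 p in place of fold.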

Additional observations from a re-analysis of the deposited data

How the results depend on the processing

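Of the 223 alternative values computed for 64 results, 5 changed direction, all of them GSK minus Veh differences in the fold percentile of a promoter peak, which are small values in single libraries. With lists of equal length the difference became -0.71 points for H3K4me3 at Id1, 5.42 for H3K27ac at Tcf3, -3.33 for H3K4me3 at Tcf4 and -0.33 for H3K4me3 at Tcf12, and by −log10 p it became 8.47 for H3K4me3 at Tcf3. A flank of 10 kb gave 24 H3K4me1 peaks in each treatment, 2 H3K27ac peaks in each and 9 Veh Pol II peaks, and 100% of its Veh H3K27ac peaks were overlapped by a GSK peak. A flank of 100 kb gave 42 Veh and 37 GSK peaks for LSD1, 79 and 86 for H3K4me1, 34 and 24 for H3K4me2, 37 and 35 for H3K4me3, 13 and 9 for H3K27ac, and 23 and 20 for Pol II. A −log10 q of at least 5 left 11 Veh and 10 GSK LSD1 peaks and 7 GSK H3K4me2 peaks. It also left 2 Veh and 3 GSK H3K27ac peaks, and 8 Veh and 7 GSK Pol II peaks. With this cutoff the Veh peaks overlapped became 100% for H3K4me3 (15 peaks) and 100% for LSD1 at TSSs (2 peaks, 34.2 to 100). The same cutoff left 1 Veh LSD1 promoter of the 6, and 1 H3K4me1 promoter in each treatment. Lists of equal length left 1 Veh H3K27ac peak, a GSK to Veh ratio of 5, an overlap of 100% for that Veh peak and of 20% for the GSK H3K27ac peaks, and 1 GSK H3K4me1 promoter. With a GSK peak within 1 kb, 81.0% of Veh LSD1 peaks and 88.9% of those at TSSs had one. Veh H3K4me1 lay at 5 promoters with a TSS window of 2.5 kb and at 4 with every transcript of the annotation. A split at the median −log10 p, chosen after seeing the data, gave overlaps of 75% for the stronger LSD1 peaks at TSSs and 0% for the weaker distal ones. In the other 143 alternatives of counts, shares and ratios the count stayed within 1.5 times its main value, or the share or ratio within its main interval. Of the other differences at single genes, 29 stayed within 10 percentile points and 5 moved by more without changing direction. Of these 5, the difference grew for H3K4me1 at Id1 (21.8 by −log10 p) and H3K4me2 at Tcf4 (-48.4 by −log10 p), and shrank for H3K4me2 at Id3 (17.4 by −log10 p), Id1 (-0.99 with lists of equal length) and Tcf4 (-4.38 with lists of equal length). Whether a peak missing from a list lay just under its cutoff was not tested. No paired analysis was possible because each antibody and treatment has 1 library, and the numbered inputs carry no peak list.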
